A study of Mus musculus with 6 samples.

Results

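NRF2, the product of Nfe2l2, and its antioxidant targets were followed on arrays of mouse cells labelled CD98hc KO and wild type (WT). The members are Nfe2l2, its inhibitor Keap1 and the targets Nqo1, Hmox1, Gclc, Gclm, Gsr, Txnrd1, Srxn1 and Cbr1, 10 genes in all. Every probe set whose single platform symbol is a member was used. That gave 14 probe sets for 9 genes, of 45037 probe sets without array controls and 17097 genes. Keap1 was not analysed here, since no probe set carried its symbol alone.

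Total RNA had been hybridised to Affymetrix mouse expression arrays, 3 labelled CD98hc KO and 3 labelled WT, with replicate numbers 1, 3 and 5 under each label. CD98hc, encoded by Slc3a2, is the heavy chain that carries a family of amino acid exchangers to the cell surface, among them xCT, which brings in cystine for glutathione synthesis. By their labels the KO cells are CD98hc null, the WT cells carry no stated change, and both are fibroblasts that came from embryonic stem cells. By the growth protocol both were kept in high glucose medium with serum, glutamine, non-essential amino acids and β-mercaptoethanol, a thiol that eases cysteine uptake where cystine cannot be imported. The sources used here do not state how many clones lie behind either line, or whether the replicates came from separate cultures. The p-values therefore measure only the spread between these arrays.

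The labels were checked first. Slc3a2 itself read 11.65, 11.57 and 11.54 on the KO-labelled arrays, against 10.64, 10.67 and 10.51 on the WT-labelled arrays, in log2 units of the deposited values and in the order of replicates 1, 3 and 5, which every list of array values keeps. The gene named as deleted was thus 0.98 (SE 0.075) higher under the KO label (limma, adjusted p = 0.00018), and the sources used here do not state where its probe set lies relative to the deletion. The cell type differed as well. Markers of pluripotent stem cells stood higher on the KO-labelled arrays for all 10 genes measured, with mean log2 levels of 11.12 to 11.21, against 4.77 to 4.84 on the WT-labelled arrays. Pou5f1, which defines pluripotent cells, read 11.92, 12.07 and 12.00 under the KO label, against 4.64, 4.70 and 4.94 under the WT label. Of 13 fibroblast markers, 8 were lower and 1 was higher, with list means of 5.29 to 5.46 on the KO-labelled and 8.33 to 8.98 on the WT-labelled arrays, and the collagen gene Col6a1 stood at 4.24, 4.24 and 4.18 under the KO label. Other fibroblast markers, Pdgfra, Lum and Thy1, averaged 4.25, 4.20 and 4.89 on the KO-labelled arrays, against 4.50, 4.17 and 4.52 on the WT-labelled arrays. These means were near the array's nonspecific level under both labels, and Thy1 was the 1 marker called higher. All 7 epithelial markers were higher (8.14 to 8.62 on the KO-labelled against 4.80 to 4.97 on the WT-labelled arrays). Of 7 endoderm, 7 macrophage and 4 erythroid markers, 2, 1 and 0 were lower and 0, 0 and 1 higher. The fibroblast description thus did not match the markers on the KO-labelled arrays, which are called by their label throughout. Loss of CD98hc and this difference in cell type cannot be told apart in any value that follows, nor can fewer cells of a type and less RNA per cell. Array medians lay within 5.62 to 5.71, and correlations over all probe sets were 0.991 to 0.994 within a label and 0.911 to 0.920 between labels.

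NRF2 is a basic leucine zipper factor. In unstressed cells KEAP1 binds it and presents it to the CUL3 ubiquitin ligase for degradation. Electrophiles and oxidants modify cysteines of KEAP1, NRF2 then accumulates, pairs with a small MAF protein and binds the antioxidant response element of its target genes. The targets make and recycle glutathione, recycle thioredoxin and peroxiredoxin, and detoxify quinones, heme and carbonyls. Because the control acts on the protein, the mRNA of Nfe2l2 need not follow NRF2 activity, and arrays measure only mRNA.

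The promoters of 4 members are shown because, among the members with a RefSeq window, these had the largest differences between the labels. Each runs from 250 bases before to 50 bases after the gene's start (RefSeq, GRCm38.p6, 5′ to 3′ on the gene's strand). Capitals mark matches to TGACNNNGC or TGAGNNNGC, the core letters of an antioxidant response element, searched on both strands.
Cbr1, chr16:93607587-93607886, + strand: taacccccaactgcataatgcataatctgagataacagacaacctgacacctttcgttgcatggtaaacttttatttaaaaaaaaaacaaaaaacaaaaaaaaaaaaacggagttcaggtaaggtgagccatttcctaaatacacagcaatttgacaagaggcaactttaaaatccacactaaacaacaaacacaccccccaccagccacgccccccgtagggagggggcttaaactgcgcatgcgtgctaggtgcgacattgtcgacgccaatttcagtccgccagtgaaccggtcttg
Nqo1, chr8:107403156-107403455, − strand: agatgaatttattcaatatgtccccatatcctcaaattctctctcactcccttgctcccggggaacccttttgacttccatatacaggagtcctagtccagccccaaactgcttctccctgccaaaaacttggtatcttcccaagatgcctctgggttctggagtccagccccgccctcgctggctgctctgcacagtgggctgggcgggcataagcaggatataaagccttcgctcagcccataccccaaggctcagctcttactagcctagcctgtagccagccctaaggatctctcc
Gclm, chr3:122245307-122245606, + strand: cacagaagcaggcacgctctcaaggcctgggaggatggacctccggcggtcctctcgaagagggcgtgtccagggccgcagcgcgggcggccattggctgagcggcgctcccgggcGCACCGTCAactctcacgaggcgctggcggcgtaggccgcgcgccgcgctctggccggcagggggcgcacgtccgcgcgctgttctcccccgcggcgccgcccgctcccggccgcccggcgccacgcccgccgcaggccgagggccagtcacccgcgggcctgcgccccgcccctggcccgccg
Srxn1, chr2:152105274-152105573, + strand: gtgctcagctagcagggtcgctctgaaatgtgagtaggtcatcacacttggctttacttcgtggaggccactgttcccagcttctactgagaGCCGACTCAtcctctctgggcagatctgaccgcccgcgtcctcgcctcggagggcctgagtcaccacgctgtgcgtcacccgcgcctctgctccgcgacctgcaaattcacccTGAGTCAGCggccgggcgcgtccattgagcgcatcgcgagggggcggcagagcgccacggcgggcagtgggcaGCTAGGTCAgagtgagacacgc
The Srxn1 window held 3 matches, the Gclm window 1, and the windows of Cbr1 and Nqo1 none. Of the 7 members with a window in the table (Cbr1, Gclm, Keap1, Nfe2l2, Nqo1, Srxn1 and Txnrd1), 4 held a match, the others of them being Nfe2l2 and 1 of the 3 windows of Txnrd1. The table has 27025 genes, of which 30.8% held one (27.8% of 32851 windows, with TGACNNNGC in 12.4% and TGAGNNNGC in 17.6%). These letters are a description of the window and not a mapped binding site, and elements outside it were not read.

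Across the 14 probe sets the members split. In limma, 5 probe sets were higher on the KO-labelled arrays at an adjusted p under 0.05, where 16.8% of all probe sets were, and 4 were lower, where 16.0% were (32.7% of all in either direction). The 5 higher ones belonged to Cbr1, Hmox1, Nqo1, Gsr and Gclm, and the 4 lower ones were all of Srxn1. The 3 labelled samples on each side did not overlap for 10 of the 14: 6 were higher under the KO label (23.7% of all probe sets) and 4 were lower (22.2%). With a change of over 2-fold as a second condition, 3 probe sets were higher (6.35% of all) and 0 lower (7.43%). The median log2 fold change of the 14 probe sets was 0.07, beside 0.0049 for all probe sets. With each gene taken by its most variable probe set, 5 of 9 genes were higher, where 21.6% of all genes were, and 1 was lower, where 18.4% were (40.0% in either direction), and their median was 0.52 beside 0.018 for all genes. Replicates 1 and 5 gave higher signals for the array's spiked hybridisation controls than replicate 3, whose 9 control probe sets were 1.16 lower in log2 units. Within replicates 1 and 5 alone, 4 arrays in all, 4 member probe sets were higher and 2 lower, and with this split as a covariate the counts were 5 and 4.

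**Figure D1:**
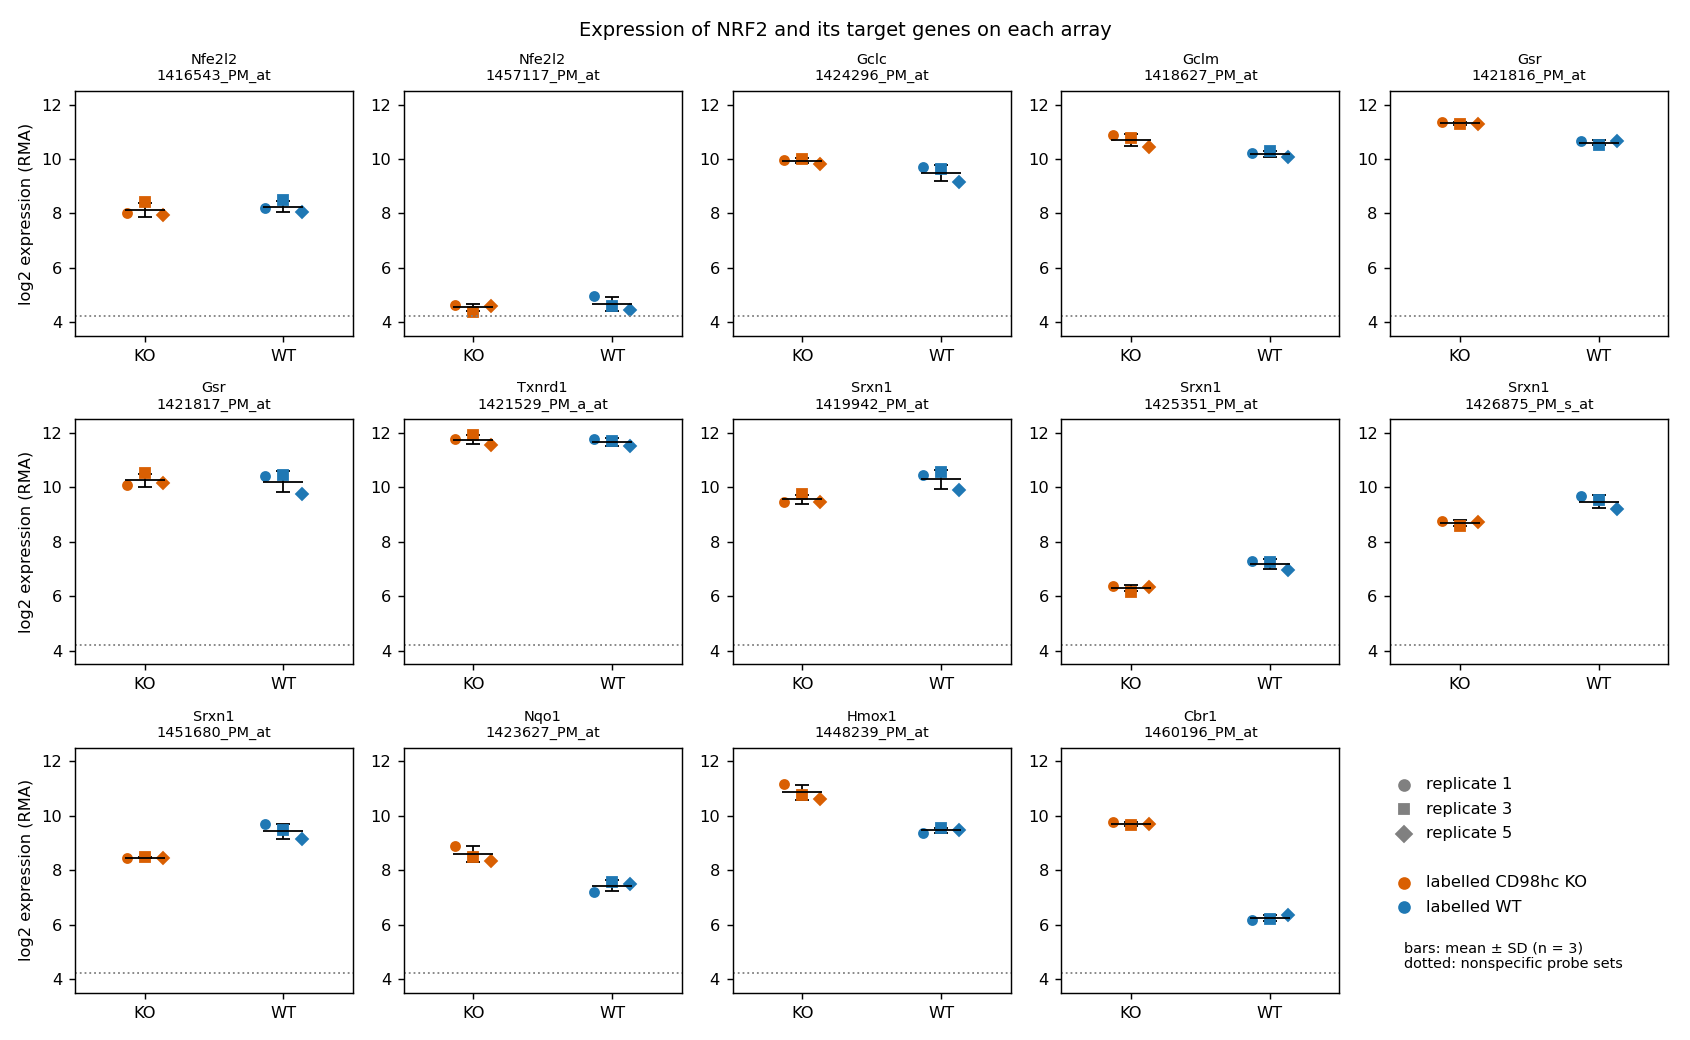
Log2 level of each of the 14 member probe sets (one panel each) on the 3 KO-labelled arrays at the left and the 3 WT-labelled arrays at the right, with points for single arrays, bars for the mean ± SD of each label (n = 3) and a dotted line at the median of the nonspecific control probe sets. Cbr1 stands at 9.65 to 9.79 under the KO label against 6.18 to 6.38 under the WT label, all 4 Srxn1 panels run the other way, and the Nfe2l2 panels overlap.

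Nfe2l2, the regulator itself, did not separate the labels. Its brighter probe set (1416543_PM_at) read 8.00, 8.41 and 7.96 on the KO-labelled arrays, against 8.20, 8.49 and 8.07 on the WT-labelled arrays. The labels overlapped, and within each of them replicate 3 was the highest. The difference was −0.13 (95% CI −0.52 to 0.26; limma, adjusted p = 0.63). The second probe set (1457117_PM_at) read 4.65, 4.39 and 4.61 on the KO-labelled arrays, against 4.95, 4.61 and 4.45 on the WT-labelled arrays. These values lie close to 4.23, the median of the array's 23 nonspecific control probe sets, which ranged from 3.28 to 8.32. That median is what the nonspecific level means here, and it is no sharp floor. The labels overlapped again (difference −0.12, 95% CI −0.47 to 0.23; limma, adjusted p = 0.62). The genes whose profile over the 6 arrays was most like the brighter Nfe2l2 probe set were Smc3, Mideas and Sytl4, with Pearson correlations of 0.994, 0.994 and 0.991. They were picked as the highest of all genes, so these values carry no test. Sytl4 lay at the nonspecific level throughout, at 4.06 to 4.39. All 3 had their highest value of each label on replicate 3, as Nfe2l2 did. Replicate 3 also gave the lower hybridisation control signal, and the part of that difference in these profiles was not tested.

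Of the genes that make and recycle glutathione, the glutathione reductase gene Gsr, whose product returns oxidised glutathione to its reduced form, was higher by 1 of its 2 probe sets. By 1421816_PM_at Gsr read 11.37, 11.28 and 11.27 on the KO-labelled arrays, against 10.65, 10.51 and 10.65 on the WT-labelled arrays. The labels were clear of each other, with a difference of 0.71 (SE 0.073), or 1.63-fold (limma, adjusted p = 0.00061). By 1421817_PM_at Gsr read 10.08, 10.54 and 10.16 under the KO label, against 10.41, 10.45 and 9.77 under the WT label. Here the labels overlapped (difference 0.05, 95% CI −0.47 to 0.57; limma, adjusted p = 0.91), so the increase of Gsr rests on a single probe set, and this second difference took the opposite sign (−0.03) when each array was centred on its median.

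Glutamate-cysteine ligase, which carries out the rate-limiting step of glutathione synthesis, is built of a catalytic subunit (Gclc) and a modifier subunit (Gclm). Gclm (1418627_PM_at) read 10.89, 10.76 and 10.46 on the KO-labelled arrays, against 10.21, 10.28 and 10.07 on the WT-labelled arrays. Each KO-labelled value was above each WT-labelled one, by 0.52 (SE 0.13) in the mean, or 1.43-fold (limma, adjusted p = 0.022). The call was not stable to single arrays. It was lost without KO replicate 1 (limma, adjusted p = 0.063), KO replicate 3 (0.064), WT replicate 1 (0.060) or WT replicate 5 (0.070), and within replicates 1 and 5 alone (difference 0.54, adjusted p = 0.11). Gclc (1424296_PM_at) read 9.97, 10.00 and 9.82 on the KO-labelled arrays, against 9.69, 9.62 and 9.16 on the WT-labelled arrays. The labels did not overlap, yet the difference of 0.44 (95% CI 0.080 to 0.80) did not pass in limma (adjusted p = 0.068). WT replicate 5 was the lowest array, and without it the difference was 0.28 (limma, adjusted p = 0.079). Slc7a11, which encodes xCT and is another NRF2 target, gave signals near or below the nonspecific level under both labels. Its brighter probe set 1420413_PM_at read 4.10, 4.26 and 4.20 on the KO-labelled arrays, against 4.19, 4.07 and 4.10 on the WT-labelled arrays. Its other probe set read 3.67, 3.69 and 3.77 under the KO label, against 3.67, 3.77 and 3.81 under the WT label (limma, adjusted p = 0.77). The paper describes these fibroblasts as having expressed xCT. Whether either probe set detects Slc7a11 mRNA was not tested, and xCT protein was not measured on these arrays.

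Of the thioredoxin arm, Srxn1 was lower and Txnrd1 was not called. Srxn1 encodes sulfiredoxin, which reduces hyperoxidised peroxiredoxins, and it was the only member of which more than 2 probe sets were measured. By 1451680_PM_at, the most variable of the 4, Srxn1 read 8.46, 8.48 and 8.44 on the KO-labelled arrays, against 9.70, 9.47 and 9.14 on the WT-labelled arrays. The KO-labelled arrays lay close together and all WT-labelled ones above them. By 1425351_PM_at Srxn1 read 6.39, 6.17 and 6.33 on the KO-labelled arrays, against 7.31, 7.28 and 6.98 on the WT-labelled arrays. By 1426875_PM_s_at Srxn1 read 8.77, 8.58 and 8.73 on the KO-labelled arrays, against 9.67, 9.54 and 9.22 on the WT-labelled arrays. By 1419942_PM_at Srxn1 read 9.46, 9.76 and 9.45 on the KO-labelled arrays, against 10.44, 10.55 and 9.90 on the WT-labelled arrays. None of the 4 overlapped between labels, and on each of them WT replicate 5 was the lowest WT-labelled array. The differences were −0.98 (SE 0.14), −0.89 (SE 0.11), −0.78 (SE 0.13) and −0.74 (SE 0.19) in the order given, or 1.67- to 1.97-fold lower under the KO label, with limma adjusted p of 0.0024, 0.0015, 0.0045 and 0.025. The 4 probe sets read the same RNA samples and are not independent replicates. The last of them lost its call without KO replicate 1, KO replicate 5, WT replicate 1 or WT replicate 3 (limma, adjusted p of 0.077 to 0.081), and within replicates 1 and 5 alone it and 1426875_PM_s_at missed the threshold (differences −0.71 and −0.69, adjusted p of 0.079 and 0.057). The Srxn1 window printed above held 3 matches to the core letters, which are not mapped sites. A link between them and the lower mRNA was not tested.

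Txnrd1 encodes the cytosolic thioredoxin reductase, which keeps thioredoxin reduced at the expense of NADPH. Txnrd1 (1421529_PM_a_at) read 11.76, 11.93 and 11.58 on the KO-labelled arrays, against 11.77, 11.71 and 11.51 on the WT-labelled arrays. The labels overlapped, and the difference was 0.09 (95% CI −0.19 to 0.38; limma, adjusted p = 0.65).

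Among the members, the detoxifying enzymes held the largest increases. Cbr1, an NADPH-dependent carbonyl reductase that acts on quinones, prostaglandins and lipid aldehydes, gave the largest difference of the 14 probe sets. Cbr1 (1460196_PM_at) read 9.79, 9.65 and 9.71 on the KO-labelled arrays, against 6.18, 6.20 and 6.38 on the WT-labelled arrays. The gap between the labels was many times the spread within either: 9.72 ± 0.068 under the KO label and 6.25 ± 0.11 under the WT label (SD, n = 3 each). The difference was 3.46 (SE 0.083), or 11.0-fold (limma, adjusted p = 2.7e-06). Hmox1 encodes heme oxygenase 1, which opens the heme ring to biliverdin, iron and carbon monoxide. Hmox1 (1448239_PM_at) read 11.17, 10.78 and 10.64 on the KO-labelled arrays, against 9.37, 9.55 and 9.48 on the WT-labelled arrays. All KO-labelled arrays were above all WT-labelled ones, by 1.39 (SE 0.14) or 2.63-fold (limma, adjusted p = 0.00061). Nqo1, the quinone reductase whose induction is the usual readout of NRF2, followed the same order. Nqo1 (1423627_PM_at) read 8.91, 8.51 and 8.35 on the KO-labelled arrays, against 7.21, 7.58 and 7.51 on the WT-labelled arrays. The labels did not overlap, and the difference was 1.16 (SE 0.17) or 2.23-fold (limma, adjusted p = 0.0027). KO replicate 1 was the highest array for Cbr1, Hmox1 and Nqo1 alike.

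**Figure D2:**
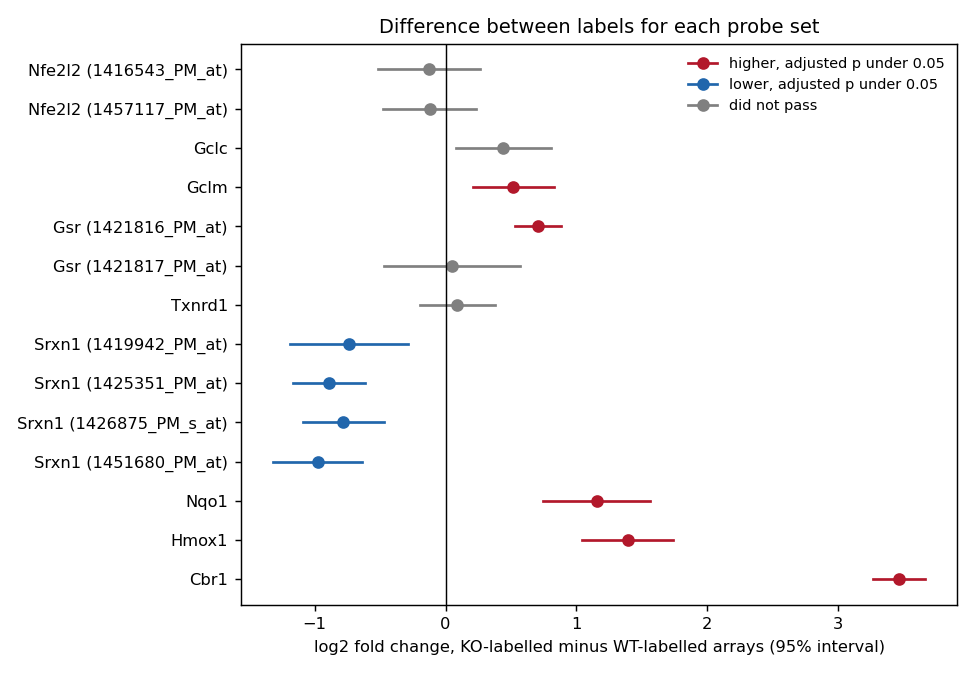
Log2 fold change of each member probe set, KO-labelled minus WT-labelled arrays, with its 95% confidence interval from limma. The interval of Cbr1 (3.26 to 3.66) lies apart from all others, the 4 Srxn1 intervals lie below 0, and those of Nfe2l2, Txnrd1 and the second Gsr probe set span 0.

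Within a label, single arrays stood out across the members. WT replicate 5 was the lowest WT-labelled array for 10 of the 14 probe sets, beside 36.3% of all probe sets, and its median deviation from the label mean was −0.20. KO replicate 5 was the lowest KO-labelled array for 9 of the 14 and the highest for 0, beside 31.3% and 27.9% of all. KO replicate 1 was the highest for 8 of the 14, beside 31.4% of all. Since 4 of the probe sets read 1 gene, these counts describe the arrays and carry no test.

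**Figure D3:**
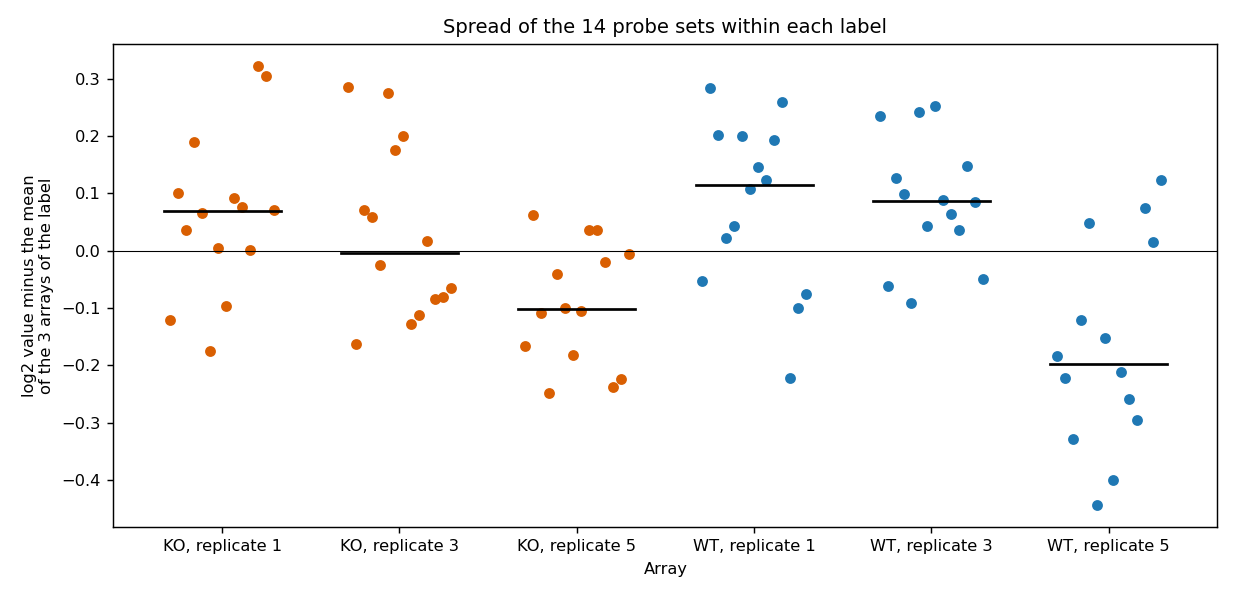
Deviation of each member probe set from the mean of its own label (log2 units, vertical axis) on the 3 KO-labelled arrays at the left and the 3 WT-labelled arrays at the right, with bars for the median of the 14. Most points of replicate 5 lie below 0 under both labels, with medians of −0.10 under the KO label and −0.20 under the WT label.

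The genes around the members were read from 8 lists of the pathway, each gene by its most variable probe set. Beside each count stand the shares of all genes, 21.6% higher and 18.4% lower. Some genes, such as Cbr3 and Esd, belong to more than 1 list and count in each, so the counts are not separate observations. The list of NRF2 turnover, with 11 of 12 genes measured, had 3 higher and 3 lower and a median log2 fold change of 0.22. Cand1, the exchange factor of cullin ligases, was 1.04 (SE 0.14) higher (limma, adjusted p = 0.0017), and Cul3, the scaffold of the KEAP1 ligase, was 0.53 (SE 0.14) higher (limma, adjusted p = 0.029). Gsk3b, a kinase that marks NRF2 for a second ligase, and Fbxw11, a substrate receptor of that ligase, were lower (log2 differences −0.83 and −0.56; limma, adjusted p = 0.016 and 0.039). The calls of Cand1, Cul3 and Gsk3b depended on the probe set, since the brightest probe set of each gave the same sign without passing (limma, adjusted p = 0.075, 0.055 and 0.056). The 5 probe sets of Cul3 also differed in sign, from −0.26 to 0.55, with 3 called higher and 0 lower. The count of 6 was also sensitive to single arrays, with 3 or 4 calls without any 1 of the 6.

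Of the 8 CNC and small MAF factors, the partners and competitors of NRF2 at the element, 3 were lower and 1 was higher, with a median of −0.09. The 4 calls became 2 without WT replicate 5 and 3 without any other single array. Maff (1418936_PM_at) read 5.91, 6.31 and 6.21 on the KO-labelled arrays, against 7.61, 7.38 and 7.27 on the WT-labelled arrays (difference −1.28, limma, adjusted p = 0.00067). Mafk (1418616_PM_at) read 8.04, 8.15 and 8.31 on the KO-labelled arrays, against 9.48, 9.21 and 8.90 on the WT-labelled arrays (difference −1.03, limma, adjusted p = 0.0031). Both are small MAF proteins, which bind DNA as the partner of NRF2, and neither overlapped between labels. The third, Mafg, differed by 0.18 and did not pass (limma, adjusted p = 0.23). Nfe2l1, a relative of Nfe2l2, was lower (−0.39, limma, adjusted p = 0.045). Nfe2, the erythroid member of the family, was higher (0.57, limma, adjusted p = 0.019) at a level of 5.31 to 5.78 on the KO-labelled and 4.82 to 5.02 on the WT-labelled arrays. Bach1, which represses Hmox1 and other targets, differed by 0.60 with overlapping labels (limma, adjusted p = 0.18). Bach2 (−0.20) and Nfe2l3 (0.03) did not pass either (limma, adjusted p = 0.74 and 0.92).

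The paralogues of the members did not follow them as a group. Of 9, 1 was higher and 6 lower, with a median of −0.46. Cbr3, the tandem neighbour of Cbr1, was the higher one. Cbr3 (1427912_PM_at) read 10.33, 9.49 and 9.05 on the KO-labelled arrays, against 6.52, 6.48 and 6.96 on the WT-labelled arrays, a difference of 2.97 (SE 0.33; limma, adjusted p = 0.00078). The labels were far apart although the KO-labelled arrays spread over more than 1 log2 unit, with replicate 1 the highest. Cbr2, a carbonyl reductase of another branch, went the opposite way. Cbr2 (1418509_PM_at) read 4.94, 4.98 and 4.95 on the KO-labelled arrays, against 6.75, 8.37 and 9.65 on the WT-labelled arrays, a difference of −3.30 (SE 0.67; limma, adjusted p = 0.010). Its WT-labelled arrays were the most scattered of any gene named here. The paralogues of the other enzymes were also lower: Txnrd3 and mitochondrial Txnrd2 beside Txnrd1, Nqo2 beside Nqo1, and the constitutive Hmox2 beside Hmox1 (log2 differences −1.18, −1.07, −0.72 and −0.46; limma, adjusted p = 0.00024, 0.021, 0.0017 and 0.0069). Only 1 of 3 probe sets of Nqo2 was called lower, and their differences reached up to 0.0013. For Txnrd3 2 of 3 were called lower, and for Txnrd2 3 of 4. Cbr4 differed by −0.37 and did not pass (limma, adjusted p = 0.076).

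The list of other NRF2 targets had 5 genes higher and 10 lower of 28 measured, with a median of −0.21. Beside Cbr3, the largest changes were decreases. Adh7, a retinol-oxidising alcohol dehydrogenase, read 5.74, 6.05 and 5.67 on the KO-labelled arrays, against 9.22, 8.91 and 8.92 on the WT-labelled arrays (difference −3.20, limma, adjusted p = 1.8e-05). Slc48a1, a heme transporter, and Abcc1, an exporter of glutathione conjugates, were lower too (log2 differences −2.35 and −2.10; limma, adjusted p = 0.00016 and 0.00055). The list of glutathione synthesis, turnover and glutaredoxins had 2 higher and 5 lower of 15 measured, with a median of −0.16. The glutaredoxin gene Glrx differed by −1.32, the glyoxalase gene Hagh by −1.03 and Esd, an esterase that completes glutathione-dependent formaldehyde oxidation, by −1.22, while Oplah, which opens 5-oxoproline to glutamate, was 1.30 higher (limma, adjusted p = 0.00055, 0.014, 0.031 and 0.0018).

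Of the thioredoxin, peroxiredoxin and sestrin system, 4 genes were higher and 8 lower of 16 measured, with a median of −0.29. Prdx1 and Prdx2, named after their values were seen, counted as higher (0.26) and lower (−0.38) by their most variable probe sets. Their brightest probe sets gave 0.05 and 0.22 and did not pass (limma, adjusted p = 0.73 and 0.059). Txnip, which binds and inhibits thioredoxin, read 10.82, 10.61 and 10.44 on the KO-labelled arrays, against 7.17, 6.75 and 7.68 on the WT-labelled arrays (difference 3.42, limma, adjusted p = 0.00012). Of the 4 methionine sulfoxide reductases of the list, which repair oxidised methionine, 3 were lower and 1 higher. Msrb3 differed by −3.49 (limma, adjusted p = 8.7e-06), with 3.92, 4.31 and 4.18 on the KO-labelled arrays, the nonspecific level, against 7.56, 7.54 and 7.77 on the WT-labelled arrays. Msra and Msrb1, named after their values were seen, differed by −0.67 and −0.65 (limma, adjusted p = 0.0010 and 0.0049), and the mitochondrial Msrb2 by 2.60 (limma, adjusted p = 0.00011). Prdx4, the peroxiredoxin of the endoplasmic reticulum, was lower (log2 difference −1.42; limma, adjusted p = 0.00026). Of the heme and iron genes, 3 were higher and 4 lower of 15 measured, with a median of 0.08. Blvra, the biliverdin reductase that acts on the product of heme oxygenase, read 7.02, 7.08 and 6.94 on the KO-labelled arrays, against 9.48, 9.79 and 9.41 on the WT-labelled arrays (difference −2.54, limma, adjusted p = 2.2e-05). It ran opposite to Hmox1, the step before it. In heme synthesis Cpox differed by 1.20 and Fech, the last step, by −0.99 (limma, adjusted p = 0.0075 and 0.0098).

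Of superoxide dismutases, catalase and FSP1, 2 were higher and 2 lower of 5, with a median of 0.48. Sod2, the mitochondrial superoxide dismutase, was 1.88 higher and the cytosolic Sod1 1.22 higher by their most variable probe sets (limma, adjusted p = 0.00036 and 0.0071). Their brightest probe sets gave 0.48 and 0.24 and did not pass (limma, adjusted p = 0.072 and 0.060). In all, 3 of 4 probe sets of Sod2 and 1 of 2 of Sod1 were called higher, and 0 lower. The secreted Sod3 was lower (log2 difference −1.92) and stood at 4.11 to 4.29 on the KO-labelled arrays, the nonspecific level, against 5.96 to 6.23 on the WT-labelled arrays (limma, adjusted p = 3.4e-05). Aifm2, whose product FSP1 protects membranes from lipid peroxidation, was lower (log2 difference −0.81; limma, adjusted p = 0.026). Cat, the catalase gene, differed by 0.48 without overlap and did not pass (limma, adjusted p = 0.074). The marker differences given for pluripotent stem cells, fibroblasts and epithelial cells ran along the same labels as every list, and their part in these counts was not tested.

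**Figure D4:**
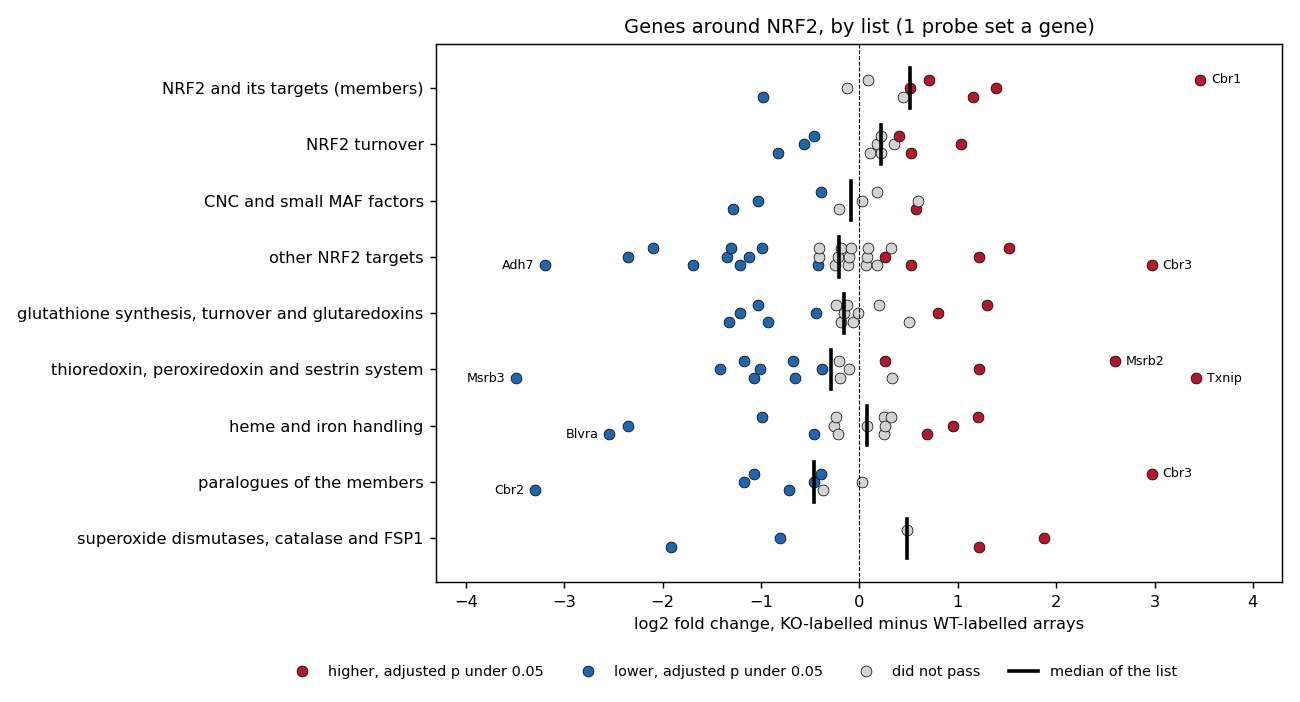
Log2 fold change, KO-labelled minus WT-labelled arrays, of each measured gene of the members and of the 8 lists (1 probe set a gene), with red for higher and blue for lower at an adjusted p under 0.05 in limma, grey for the rest, and a black bar for the median. The members have a median of 0.52 and the paralogues −0.46, and Cbr1 and Cbr3 lie at the right end of their rows. Some genes belong to more than 1 list and are drawn in each.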

How the data were processed

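RNA of 3 CD98hc KO-labelled and 3 WT-labelled samples was amplified as cDNA and hybridised to 1 array each. The deposited values are log2 levels per probe set that the authors made by RMA, which the submitters' processing notes name without a version, and the study's methods name affyPLM for background correction and summarisation. They were used as deposited, as no probe intensities were used here, so no detection call was made and precision depends on how many arrays there are. Every value column was matched to a sample title.

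Probe sets were named from the platform annotation: 28898 of 45141 had 1 symbol, 551 had several, which named no gene, and 15692 were unnamed here. Of those with 1 symbol, 28689 were found in a RefSeq gene table (GRCm38.p6), which changed 0 symbols. The 104 array controls were left out of the tests. The members and lists were chosen with earlier results of these data known. All measured members and, of each list, up to 4 called genes with the largest difference are named, with every gene of the CNC and small MAF, paralogue and superoxide dismutase lists and Slc7a11. The 3 genes most like Nfe2l2 are named as well. Of 115 list entries, 107 were measured.

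Differences are KO-labelled minus WT-labelled arrays, from limma 3.58.1 in R 4.3.3 (lmFit, eBayes) fitted on all 45037 probe sets, with Benjamini-Hochberg adjustment over all of them and a call at an adjusted p under 0.05. The study's own model adds scan batch, which the sources used here do not state per array, and no covariate was fitted. An exact permutation test of 3 against 3 arrays cannot go below 0.1. On simulated data of 45037 probe sets, limma called 66 of 100 probe sets changed by 1 log2 unit, 94 of 100 changed by 2 and 8 of 44837 unchanged ones. Far fewer probe sets were changed there than the 32.7% called in these data. The adjustment was therefore stricter in the simulation, and its rates need not hold for these arrays. The alternatives tried were median centring, quantile normalisation, a filter on dim probe sets, another probe set per gene, a fold limit, batch and replicate terms, and each array left out. Tables and figures were made with pandas 2.3.3 and matplotlib 3.10.9 (Python 3.11.15).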

Additional observations from a re-analysis of the deposited data

How the results depend on the processing

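Cbr1, Hmox1, Nqo1, Gsr by 1421816_PM_at and Srxn1 by 1425351_PM_at and 1451680_PM_at kept their direction under every alternative run for them and their adjusted p under 0.05 in each. With a fold limit of 2 only Cbr1, Hmox1 and Nqo1 of these remained called. Nfe2l2, Txnrd1 and Gsr by 1421817_PM_at stayed uncalled under every alternative. Within the arrays of replicates 1 and 5, 2 member probe sets were called lower and 2 genes of the NRF2 turnover list were called. With a fold limit of 2, 3 member probe sets and 3 member genes were called higher and 0 of each lower, and calls in the lists numbered 1 for NRF2 turnover, 2 for CNC and small MAF factors, 4 for glutathione and glutaredoxins, 3 for heme and iron and 4 for the paralogues. By the brightest probe set of a gene, 2 were called in NRF2 turnover and 2 in the superoxide dismutase list. With 1 array left out, the calls ranged over 3 to 4 for NRF2 turnover, 2 to 3 for CNC and small MAF factors, 4 to 5 for member probe sets higher and 3 to 4 for those lower, and log2 differences over −0.17 to 0.17 for Gsr by 1421817_PM_at, −0.23 to 0.021 for Nfe2l2 by 1457117_PM_at and 0.28 to 0.54 for Gclc. Median centring turned Gsr by 1421817_PM_at to −0.029 (limma, adjusted p = 0.93). The cause of these changes was not tested, apart from fewer arrays or a stricter rule by construction. Whether the replicate numbers pair the arrays is not settled. Deviations of same-numbered arrays from their label means correlated at 0.057, 0.558 and 0.152 for replicates 1, 3 and 5. KO replicates 3 and 5 correlated best with the WT array of their own number, but KO replicate 1 with WT replicate 5 (0.310). With 3 arrays a label, these values cannot decide it. With the replicate block, Gclc was called (0.44, limma, adjusted p = 0.027), which gave 6 member probe sets higher and 4 lower. A filter on dim probe sets also called Gclc, at an adjusted p that rounds to 0.050, and it left out Nfe2l2 by 1457117_PM_at. The median of all probe sets was 0.0049 as deposited, −0.072 after median centring and −0.0081 after quantile normalisation.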

Other observations

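The neighbours of Cbr1 on chromosome 16 were looked up after its values were seen, in the gene order of the RefSeq table (GRCm38.p6), each by its most variable probe set. Runx1, a transcription factor of blood formation that lies on the far side of Setd4 from Cbr1, averaged 4.78 ± 0.16 on the KO-labelled arrays and 8.41 ± 0.36 on the WT-labelled arrays (log2 level, SD, n = 3 each; difference −3.63, limma, adjusted p = 3.8e-05). Setd4, the gene between them, averaged 6.61 ± 0.15 on the KO-labelled arrays and 5.46 ± 0.30 on the WT-labelled arrays (SD, n = 3 each; difference 1.16, limma, adjusted p = 0.0023). On the other side come Cbr3, 1 gene without a probe set, and Dop1b, which averaged 6.06 ± 0.32 on the KO-labelled arrays and 6.02 ± 0.32 on the WT-labelled arrays (SD, n = 3 each; difference 0.04, limma, adjusted p = 0.93). Morc3, the next gene, was higher (8.81 ± 0.11 on the KO-labelled arrays and 7.83 ± 0.013 on the WT-labelled arrays, SD, n = 3 each; limma, adjusted p = 0.00019), and Chaf1b after it was not called (difference 0.39, limma, adjusted p = 0.28). The increase of the carbonyl reductase pair was thus flanked by genes that were lower, higher and not called.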
